A study of Mus musculus with 24 samples.

Results

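The genes Odf3l2, Galnt15, Arrdc2, Pde4d, Ttll7, Klk1b26, Hectd2 and Mss51 were read across all 24 arrays of a study of mouse calf muscle (triceps surae) under dexamethasone, a synthetic glucocorticoid. These 8 genes were chosen by their large log2 differences between dexamethasone and untreated muscle on these same arrays, so those differences are given as a description, with no test. They were represented by 21 of the 46632 probes on the beadchip, matched by the annotated gene symbol. Of these 21 probes, 15 passed a filter that asked for a detection p under 0.05 on at least 3 of the 24 arrays, as did 20769 probes in all. The filter can be passed through the treated arrays alone, so the 15 kept probes are not an unselected sample of the 21.

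All mice were of the C57/Bl6 strain, 4 months old, and each of the 8 groups held 3 arrays. The knockout mice lacked MuRF1, a ubiquitin ligase of muscle and the product of Trim63, and the wild-type mice did not; the sources used here do not say how the knockout was made. The groups were knockout 14 days with dexamethasone, knockout 14 days untreated, wild type 14 days with dexamethasone, wild type 14 days untreated, knockout 3 days with dexamethasone, knockout 3 days untreated, wild type 3 days with dexamethasone and wild type 3 days untreated. Dexamethasone was given at 3 mg/kg in the drinking water, and untreated littermates were kept alongside for each duration. The labels do not say whether the 3 arrays of a group came from separate animals, so p-values reflect only how far these samples vary, and that variation may be technical.

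Across the 24 arrays, the median probe signal was 81.0 to 101.9 and the share of probes detected was 29% to 36.1%. The number of arrays, 3 per group, limits the precision of every value. Trim63 had log2 signals of 4.46 to 5.16 on the 12 knockout arrays and 8.07 to 9.95 on the 12 wild-type arrays, by its single probe; the sources used here do not say whether that probe lies in the deleted part. The defining markers of skeletal muscle were present, with 9 of 9 marker genes on the array kept. Replicate 3 of the knockout 3-day dexamethasone group stood apart from all others on the first principal component, at 79.1 against a range of -35.24 to 26.98 for the other 23 arrays, and it was the lowest of its 3 arrays for 6 of the 8 genes. For the brightest probe of each gene, the dexamethasone difference of that group is therefore also given without it, as are some calls. Other values of that group include it. Because these are bulk samples, fewer cells of one type and less RNA per cell cannot be told apart.

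Glucocorticoids bind the glucocorticoid receptor, a nuclear receptor that then binds DNA and raises or lowers the transcription of its target genes. In skeletal muscle, sustained exposure is known for wasting, with raised expression of ubiquitin ligases such as Fbxo32 and MuRF1, of the metabolic regulator Pdk4 and of the receptor's own feedback partner Fkbp5. The 8 genes sit outside this well-described core. Odf3l2 belongs to a family named for the outer dense fibres of the sperm tail. Galnt15 is a member of the enzyme family that starts mucin-type O-glycosylation in the Golgi. Arrdc2 is an alpha-arrestin, a family of adaptors that link membrane proteins to ubiquitin ligases. Pde4d hydrolyses cyclic AMP, Ttll7 adds glutamate chains to tubulin, and Klk1b26 is a secreted serine protease of the glandular kallikreins. Hectd2 is a ubiquitin ligase of the HECT class. Mss51, expressed in skeletal muscle, is named after a yeast protein that activates translation of a mitochondrial subunit of the respiratory chain.

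In the RefSeq annotation of mouse build GRCm38.p6, the 8 genes are protein-coding and lie apart from one another, with Galnt15 and Mss51 alone sharing a chromosome. Odf3l2 lies on chromosome 10 (79639526 to 79645738), Galnt15 on chromosome 14 (32028782 to 32062204) and Arrdc2 on chromosome 8 (70835129 to 70839720). Pde4d lies on chromosome 13 (108654177 to 109955969) and spans 1301793 bases, and Ttll7 lies on chromosome 3 (146852184 to 146984009). Klk1b26 lies on chromosome 7 (44012678 to 44016969), Hectd2 on chromosome 19 (36554126 to 36621135) and Mss51 on chromosome 14 (20482857 to 20496901).

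Promoter windows from RefSeq GRCm38.p6, each from 250 bases before to 50 bases after a start site, were matched for 6 of the 8 genes, all but Odf3l2 and Hectd2. In 4 of the 6 that start is the outer end of the annotated gene, and those of Galnt15 and Ttll7 are set on a start 321 and 183 bases inside the gene. They were searched on both strands for the full glucocorticoid response element (AGAACA, 3 bases of any kind, then TGTTCT), for its looser core (GNACA, 3 bases, then TGTNC), which every full site contains, and for the half-site AGAACA, which opens the full site. Of 32851 promoter windows, 0.00913% held the full site, 0.475% the core and 19% the half-site. None of these 3 forms was found in the 6 windows, which says only that the letters are not in these windows. TATAAA, held by 13.6% of all windows, was in none of the 6 either. CCAAT, held by 37.4%, was in 2 of the 6, those of Arrdc2 and Klk1b26. Both are shown, since Arrdc2 is a gene whose treated signal was higher in the wild type than in the knockout and Klk1b26 one whose treated signal was high in both. The first is chr8:70839721-70839970 (minus strand) and the second chr7:44012428-44012677 (plus strand), each the 250 bases before the gene start, written along the gene's strand with the CCAAT matches in capitals. In Arrdc2 the 3 matches lie on the opposite strand and so read ATTGG, starting 250, 126 and 7 bases before the gene start. In Klk1b26 the single match lies on the gene's strand, starting 214 bases before the gene start.
Arrdc2: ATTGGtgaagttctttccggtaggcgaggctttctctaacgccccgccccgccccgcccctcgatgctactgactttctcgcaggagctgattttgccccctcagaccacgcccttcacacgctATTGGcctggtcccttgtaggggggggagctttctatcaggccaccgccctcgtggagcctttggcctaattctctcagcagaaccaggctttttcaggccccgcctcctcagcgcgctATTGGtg
Klk1b26: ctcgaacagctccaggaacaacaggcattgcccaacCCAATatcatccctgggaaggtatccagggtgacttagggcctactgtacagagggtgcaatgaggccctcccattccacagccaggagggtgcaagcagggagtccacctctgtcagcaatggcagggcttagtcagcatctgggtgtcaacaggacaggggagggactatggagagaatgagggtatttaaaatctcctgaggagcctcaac

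Odf3l2 was high in treated muscle and close to background in untreated muscle. Its single probe (ILMN_1245535) was detected on 12 of 12 treated arrays and on 4 of 12 untreated arrays. These were 1 of 3 in each untreated group, replicate 2 each time. At 14 days the knockout had log2 signals of 8.23, 7.87 and 7.13 with dexamethasone and 4.23, 4.97 and 4.57 untreated. The wild type at 14 days had 8.96, 8.49 and 8.52 with dexamethasone and 4.34, 4.90 and 4.63 untreated. The groups did not overlap in either genotype at 14 days. At 3 days the knockout had 7.78, 8.22 and 6.26 with dexamethasone and 4.48, 5.21 and 4.65 untreated. The wild type at 3 days had 9.17, 7.95 and 7.97 with dexamethasone and 4.42, 4.72 and 4.49 untreated. Again all treated arrays lay above all untreated arrays, and the treated knockout array at 6.26 was the one that stood apart. The log2 differences, with dexamethasone minus untreated, were 3.15 in the knockout and 4.03 in the wild type at 14 days, and 2.64 in the knockout and 3.82 in the wild type at 3 days (SE 0.374 each, n = 3 per group). These differences rest on an untreated level that was mostly not above background. With each untreated array taken no lower than its dimmest detected probe, the signal was at least 7.65-fold higher with dexamethasone in the knockout and 14.6-fold in the wild type at 14 days, and at least 5.67-fold in the knockout and 12.8-fold in the wild type at 3 days. Without the array that stood apart, the knockout difference at 3 days was 3.22. The 4 treated groups were ordered wild type 14 days, wild type 3 days, knockout 14 days and knockout 3 days, and neighbours in this order overlapped.

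**Figure D1:**
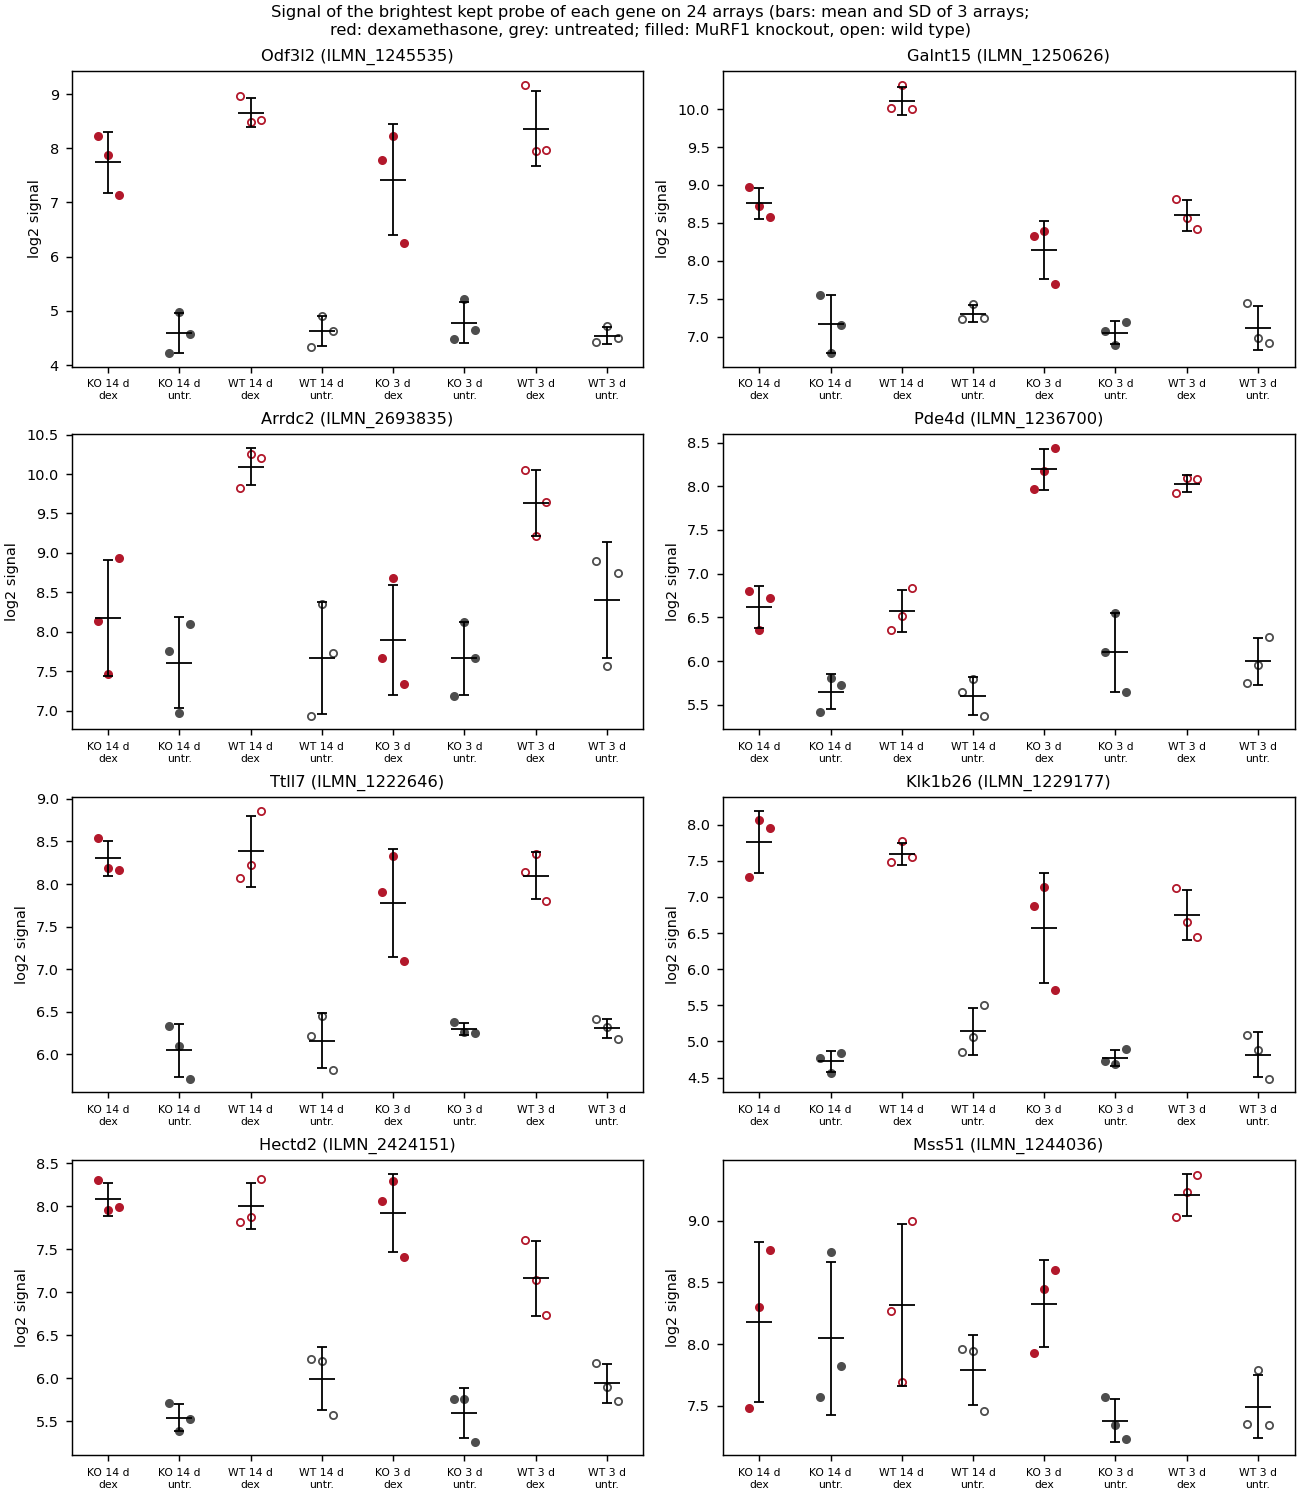
Normalised log2 signal (y axis) of the brightest kept probe of each of the 8 genes on 24 arrays, in the 8 groups (x axis), with 3 points per group; the bars are the mean and SD of 3 arrays, red marks dexamethasone, grey untreated, filled points the MuRF1 knockout and open points the wild type. For Odf3l2, Galnt15, Ttll7, Klk1b26 and Hectd2 all 12 treated arrays sit above all 12 untreated arrays, whereas the Arrdc2 knockout groups and the Mss51 14-day groups overlap.

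For Galnt15 the treated wild type at 14 days stood above every other group. By its brightest probe (ILMN_1250626), the knockout at 14 days had 8.98, 8.72 and 8.58 with dexamethasone and 7.55, 6.79 and 7.15 untreated. Wild-type arrays at 14 days had 10.01, 10.32 and 10 with dexamethasone and 7.23, 7.43 and 7.25 untreated. No treated array overlapped an untreated one, and the 3 treated wild-type arrays were higher than the 3 treated knockout arrays by at least 1 log2 unit. The 3-day knockout had 8.33, 8.39 and 7.70 with dexamethasone and 7.08, 6.89 and 7.19 untreated. Wild-type arrays at 3 days had 8.82, 8.56 and 8.42 with dexamethasone and 7.45, 6.98 and 6.91 untreated. These groups did not overlap either, and the lowest treated knockout value, 7.70, was again from the array that stood apart. The log2 differences were 1.60 in the knockout and 2.81 in the wild type at 14 days, and 1.09 in the knockout and 1.49 in the wild type at 3 days (SE 0.200 each); the knockout difference at 3 days was 1.31 without that array. The other 2 kept probes, annotated to the same transcript, gave 1.23 and 1.19 in the knockout and 2.61 and 2.03 in the wild type at 14 days. At 3 days they gave 0.95 and 0.58 in the knockout and 1.27 and 0.97 in the wild type. All 3 kept probes gave the largest of the 4 differences in the wild type at 14 days and the smallest in the knockout at 3 days. The 4th probe was detected on 2 of 24 arrays and was not kept.

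For Arrdc2 the treated arrays lay above the untreated ones in the wild type and overlapped them in the knockout. By its brighter probe (ILMN_2693835), the knockout at 14 days had 8.13, 7.46 and 8.93 with dexamethasone and 7.75, 6.97 and 8.10 untreated. In the wild type the 14-day values were 9.82, 10.26 and 10.20 with dexamethasone and 6.93, 8.35 and 7.73 untreated. The knockout groups overlapped and the wild-type groups were more than 1 log2 unit apart at their nearest arrays. In the knockout the 3-day values were 7.67, 8.68 and 7.34 with dexamethasone and 7.19, 8.12 and 7.67 untreated. In the wild type the 3-day values were 10.05, 9.21 and 9.65 with dexamethasone and 8.90, 7.56 and 8.75 untreated. The knockout groups overlapped here too, while the wild-type groups were separated by a narrow gap between 9.21 and 8.90. Treated minus untreated, the log2 differences were 0.57 in the knockout and 2.43 in the wild type at 14 days, and 0.24 in the knockout and 1.24 in the wild type at 3 days (SE 0.414 each), with 0.52 in the knockout at 3 days without the array that stood apart. The second probe (ILMN_2613191) gave 0.25 in the knockout and 1.63 in the wild type at 14 days, and 0.63 in the knockout and 1.34 in the wild type at 3 days (SE 0.337 each). On this probe the treated and untreated knockout arrays did not overlap at 3 days, unlike on the brighter probe. The knockout difference minus the wild-type difference was -1.86 at 14 days and -1.0 at 3 days by the brighter probe (SE 0.585), and -1.38 and -0.71 by the second (SE 0.477). These differences were not tested, because they are made of the contrasts that chose the gene. The untreated wild-type arrays at 14 days lay between 6.93 and 8.35, the widest range within an untreated group among the brightest probes of the 8 genes. In the order of group means the treated wild-type groups came first, and the other 6 groups overlapped with their neighbours.

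Pde4d was higher under dexamethasone in both genotypes, with a larger difference at 3 days than at 14 days in each. By its one kept probe (ILMN_1236700), the knockout at 14 days had 6.80, 6.35 and 6.72 with dexamethasone and 5.42, 5.80 and 5.73 untreated. The 14-day wild type had 6.36, 6.52 and 6.83 with dexamethasone and 5.64, 5.79 and 5.37 untreated. The groups did not overlap, and the treated arrays of the genotypes overlapped. Knockout arrays at 3 days had 7.97, 8.17 and 8.44 with dexamethasone and 6.10, 6.55 and 5.65 untreated. The 3-day wild type had 7.92, 8.09 and 8.08 with dexamethasone and 5.75, 5.96 and 6.28 untreated. All 6 treated 3-day arrays were above all 6 treated 14-day arrays. The resulting log2 differences were 0.97 in the knockout and 0.97 in the wild type at 14 days, and 2.09 in the knockout and 2.04 in the wild type at 3 days (SE 0.201 each), with 1.97 in the knockout at 3 days without the array that stood apart. The 14-day difference minus the 3-day difference was -1.13 in the knockout and -1.07 in the wild type (SE 0.285), not tested. The other 3 Pde4d probes were detected on 2, 1 and 0 of the 24 arrays, so the gene's pattern rests on 1 probe of 4.

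Ttll7 was higher under dexamethasone in all 4 contrasts, and its treated arrays overlapped between genotypes at both durations. Its single probe (ILMN_1222646), annotated to a cDNA clone, gave 8.54, 8.19 and 8.17 with dexamethasone and 6.33, 6.10 and 5.71 untreated in the knockout at 14 days. The wild type at 14 days had 8.07, 8.22 and 8.86 with dexamethasone and 6.21, 6.45 and 5.81 untreated. The genotypes covered overlapping ranges in both states, and treated and untreated arrays did not overlap. At 3 days the knockout had 7.91, 8.33 and 7.09 with dexamethasone and 6.38, 6.26 and 6.25 untreated. The wild type at 3 days had 8.14, 8.35 and 7.80 with dexamethasone and 6.41, 6.32 and 6.18 untreated. The lowest treated array, at 7.09, was the array that stood apart. On the log2 scale the differences were 2.25 in the knockout and 2.23 in the wild type at 14 days, and 1.48 in the knockout and 1.80 in the wild type at 3 days (SE 0.248 each), with 1.82 in the knockout at 3 days without that array. The 4 treated groups overlapped with their neighbours in the order of means, as did the 4 untreated groups.

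Klk1b26 was read by 2 kept probes that agreed on direction in all 4 contrasts. By the brighter one (ILMN_1229177), the knockout at 14 days had 7.27, 8.06 and 7.96 with dexamethasone and 4.77, 4.56 and 4.84 untreated. Wild-type arrays at 14 days had 7.48, 7.77 and 7.55 with dexamethasone and 4.86, 5.06 and 5.50 untreated. The groups were far apart in both genotypes. The 3-day knockout had 6.88, 7.14 and 5.71 with dexamethasone and 4.73, 4.69 and 4.89 untreated. Wild-type arrays at 3 days had 7.13, 6.66 and 6.45 with dexamethasone and 5.09, 4.88 and 4.48 untreated. The treated arrays lay above the untreated ones, with the array that stood apart at 5.71. The log2 differences were 3.04 in the knockout and 2.46 in the wild type at 14 days, and 1.80 in the knockout and 1.93 in the wild type at 3 days (SE 0.274 each), with 2.24 in the knockout at 3 days without that array. Untreated arrays detected this probe 2 of 3 times in the knockout at 14 days and in the wild type at 3 days, where it was at least 7.95-fold and 3.64-fold higher under dexamethasone by the same rule for dim arrays as for Odf3l2. The second probe (ILMN_1217308) was detected on 12 of 12 treated and 4 of 12 untreated arrays, and it gave 1.71 in the knockout at 14 days, 1.51 in the knockout at 3 days and 1.46 in the wild type at 3 days (SE 0.214 each). No untreated wild-type array at 14 days detected the second probe, and there it was at least 2.27-fold higher under dexamethasone. The brighter probe gave a larger difference in the knockout at 14 days than at 3 days, by 1.24 (SE 0.387), and the second one by 0.20 (SE 0.303), neither of them tested. Glandular kallikreins are a family of closely related genes, and whether these probes also bind transcripts of relatives was not tested.

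Hectd2 was higher under dexamethasone by its brightest probe, and its other 3 kept probes, which were dim, did not follow it. By its brightest probe (ILMN_2424151), the knockout at 14 days had 8.30, 7.95 and 7.99 with dexamethasone and 5.71, 5.39 and 5.53 untreated. In the wild type the 14-day values were 7.82, 7.87 and 8.31 with dexamethasone and 6.22, 6.20 and 5.57 untreated. The treated arrays of the genotypes overlapped one another and not the untreated ones. In the knockout the 3-day values were 8.06, 8.29 and 7.41 with dexamethasone and 5.76, 5.76 and 5.26 untreated. In the wild type the 3-day values were 7.61, 7.14 and 6.73 with dexamethasone and 6.18, 5.90 and 5.74 untreated. All groups were apart between treatments, and the treated 3-day arrays of the genotypes overlapped through the knockout array at 7.41. Treated minus untreated, the log2 differences were 2.54 in the knockout and 2.00 in the wild type at 14 days, and 2.32 in the knockout and 1.22 in the wild type at 3 days (SE 0.236 each), with 2.58 in the knockout at 3 days without the array that stood apart. The knockout difference minus the wild-type difference was 0.54 at 14 days and 1.1 at 3 days (SE 0.333), not tested. The other 3 kept probes gave differences between -0.32 and 0.31 over the 4 contrasts. Their group means were 4.50 to 5.46 over treated and untreated groups, so a change could be missed on them. Of these, ILMN_1247558 was detected on 15 and ILMN_1249165 on 5 of 24 arrays. The third (ILMN_1252222) is annotated to the same RefSeq transcript as the brightest probe and was detected on 23 of 24 arrays, with log2 signals of 4.66 to 5.58. In the knockout at 14 days its 3 treated arrays lay below its 3 untreated ones, at a log2 difference of -0.32 (SE 0.159). The last 2 of the 6 probes were detected on none of the 24 arrays. The Hectd2 values therefore rest on 1 probe of 6, and whether the probes read different transcripts was not tested.

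Mss51 was higher under dexamethasone at 3 days, and its groups overlapped at 14 days. By its single probe (ILMN_1244036), the knockout at 14 days had 7.48, 8.30 and 8.76 with dexamethasone and 7.57, 8.75 and 7.82 untreated. The 14-day wild type had 8.27, 7.69 and 9.0 with dexamethasone and 7.96, 7.94 and 7.46 untreated. Both pairs of groups overlapped, and the 3 treated wild-type arrays alone spanned 7.69 to 9.0. Knockout arrays at 3 days had 7.93, 8.45 and 8.60 with dexamethasone and 7.57, 7.34 and 7.23 untreated. The 3-day wild type had 9.03, 9.23 and 9.37 with dexamethasone and 7.35, 7.79 and 7.34 untreated. Here treated and untreated arrays were apart in both genotypes, and the 3 treated wild-type arrays were above the 3 treated knockout arrays. The resulting log2 differences were 0.14 in the knockout and 0.53 in the wild type at 14 days, and 0.95 in the knockout and 1.71 in the wild type at 3 days (SE 0.314 each), with 0.81 in the knockout at 3 days without the array that stood apart. The 14-day difference minus the 3-day difference was -0.81 in the knockout and -1.18 in the wild type (SE 0.444), not tested.

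**Figure D2:**
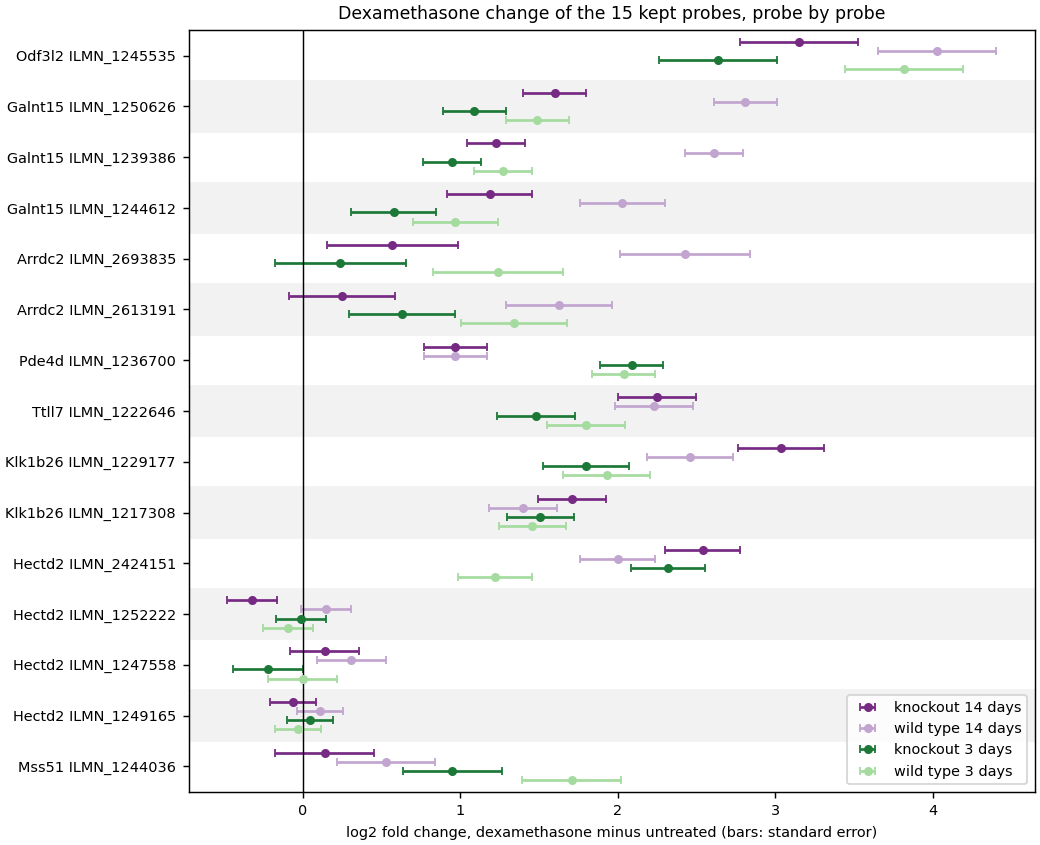
Log2 difference between dexamethasone and untreated muscle (x axis) for each of the 15 kept probes (y axis), in the 4 combinations of genotype and duration; points are means of 3 arrays against 3 and bars the standard error of the fit, and untreated levels of Odf3l2 and of the second Klk1b26 probe were mostly not above background. The 3 Galnt15 probes and the 2 Klk1b26 probes lie on the same side of 0 throughout, while 3 of the 4 Hectd2 probes lie between -0.32 and 0.31.

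Side by side, the 8 brightest probes fell into different patterns over genotype and duration. A log2 difference of at least 1, which is 2-fold, was reached by 5 of the 8 in the knockout at 14 days, 6 in the wild type at 14 days, 6 in the knockout at 3 days and 8 in the wild type at 3 days. Over all kept probes the shares at least 2-fold higher were 0.539%, 0.621%, 0.616% and 0.568% in the same 4 contrasts. Treated arrays lay wholly above untreated ones for 6, 7, 7 and 8 of the 8 probes in that order, against 6.99%, 9.08%, 10.5% and 11.1% of all kept probes. Both counts follow from how the genes were picked, and nothing is read from them. All 12 treated arrays lay above all 12 untreated arrays for 6 of the 15 kept probes, those of Odf3l2, Ttll7 and Klk1b26 and the brightest ones of Galnt15 and Hectd2, as they did for 0.361% of all kept probes. That count too follows from how the genes were picked, and nothing is read from it. By the distance between group patterns, taken as the root-mean-square difference of the 8 group means after each gene was centred on its own mean, the closest pair was Hectd2 and Ttll7 at 0.313 log2 units. Klk1b26 and Ttll7 followed at 0.328, and Hectd2 and Klk1b26 at 0.343. For Galnt15 and Arrdc2, by contrast, the 3 treated knockout arrays lay below the 3 treated wild-type arrays at both durations. For Galnt15 at 3 days the gap was narrow, between 8.39 and 8.42. The Hectd2 differences, in turn, were larger in the knockout than in the wild type at both durations by its brightest probe.

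Means over the treated and untreated groups of one genotype and duration were compared between genotypes and between arms. Each test was a limma contrast over all 20769 kept probes, with Benjamini-Hochberg adjustment over them and a threshold of 0.05. These means hold the same treated and untreated arrays as the contrasts that chose the genes. A gene picked for a large rise in one group can have a high mean there for that reason, so the p-values are not evidence independent of the choice, and the treated and untreated parts are given beside each difference. The errors of a mean and of a difference of 2 groups are independent only where both groups vary equally. The fit assumes this, but the groups' SDs were unequal in places, such as 0.698 treated and 0.157 untreated for Odf3l2 in the wild type at 3 days.

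Averaged over treatment, Galnt15 in the 14-day arm and Arrdc2 in the 3-day arm were lower in the knockout, by more between the treated than between the untreated groups. In the 14-day arm the brightest Galnt15 probe averaged 7.96 in the knockout and 8.71 in the wild type, a log2 difference of -0.74 (SE 0.141, 95% interval -1.04 to -0.45, adjusted p = 0.00494). The difference was -1.35 between the treated groups and -0.14 between the untreated groups. A second Galnt15 probe (ILMN_1244612) differed by -0.76 (adjusted p = 0.0413) and the third (ILMN_1239386) by -0.48 (adjusted p = 0.0552), which missed the threshold. In the 3-day arm the brighter Arrdc2 probe averaged 7.78 in the knockout and 9.02 in the wild type, a difference of -1.24 (SE 0.293, 95% interval -1.85 to -0.64, adjusted p = 0.0391), made of -1.74 between the treated groups and -0.74 between the untreated groups. The second Arrdc2 probe differed by -0.56 (adjusted p = 0.319), and in the 14-day arm the brighter one differed by -0.99 (adjusted p = 0.0838). In all, 2 of the 15 member probes passed in the 14-day arm, where 1.74% of all kept probes did, and 1 of 15 in the 3-day arm, where 0.997% did. At an unadjusted p under 0.05 the counts were 7 and 6 of 15, in both directions. Higher in the knockout were ILMN_1217308 of Klk1b26 (0.34) and ILMN_1252222 of Hectd2 (0.30) in the 14-day arm. In the 3-day arm ILMN_1249165 of Hectd2 was (0.22), and the others counted were lower. The share of all kept probes at that cut is not given, so nothing is read from these counts.

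The Arrdc2 call and the call of the second Galnt15 probe depended on single arrays. The Arrdc2 call was lost on leaving out replicate 1 or 3 of any of the 4 groups of the 3-day arm, 8 of 24 arrays, with differences of -1.25 to -1.10 and adjusted p of 0.0691 to 0.128. Without the array that stood apart, one of these 8, the difference was -1.10 (adjusted p = 0.0691). The call of the second Galnt15 probe between genotypes was lost without any one of 12 arrays, with differences of -0.83 to -0.63 and adjusted p of 0.0513 to 0.133. In the 14-day arm these were replicates 2 and 3 of both knockout groups, all 3 treated wild-type arrays and untreated wild-type replicates 1 and 3. In the 3-day arm they were treated wild-type replicates 1 and 2 and untreated wild-type replicate 2. The call of the brightest Galnt15 probe held on leaving out each of the 24 arrays and under the 7 other settings, with adjusted p of 6.88e-05 to 0.0217. All these fits still hold treated arrays that chose the gene, so this is not evidence independent of the choice. The Arrdc2 call was also lost on the deposited value table, without the filter on detection and with array weights, and that of the second Galnt15 probe in the first 2 of these settings. Over all alternatives the Arrdc2 adjusted p ran from 0.0115 to 0.137.

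**Figure D3:**
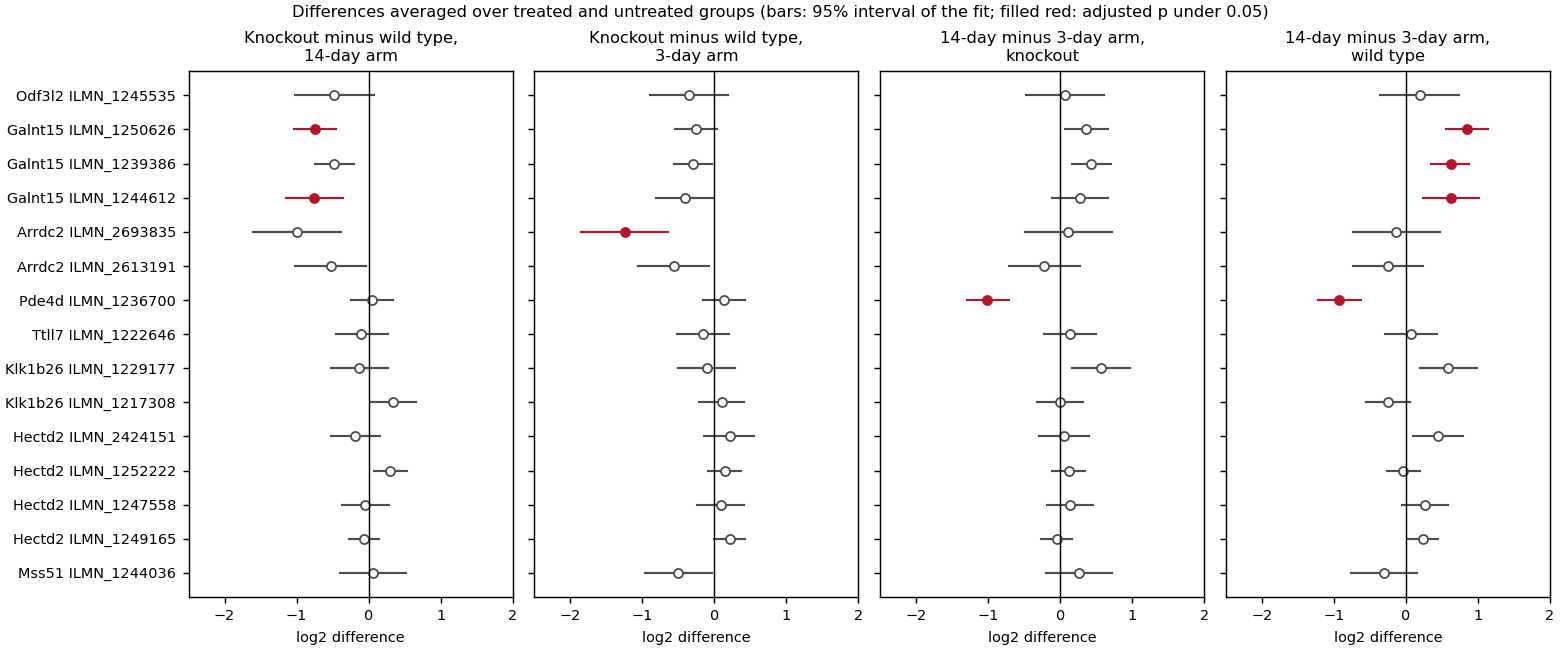
Log2 difference of means over treated and untreated groups (x axis) for the 15 kept probes (y axis), between genotypes in each arm (2 left panels) and between the 14-day and 3-day arms in each genotype (2 right panels); bars are 95% intervals of the fit and red points have an adjusted p under 0.05. Galnt15 and Arrdc2 lie to the left of 0 between genotypes, and Pde4d lies near -1 between the arms in both genotypes.

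Between durations, again averaged over treatment, Pde4d was lower in the 14-day arm in both genotypes and Galnt15 was higher in the 14-day arm of the wild type. Pde4d averaged 6.14 in the 14-day and 7.14 in the 3-day arm of the knockout, a difference of -1.01 (SE 0.142, 95% interval -1.30 to -0.71, adjusted p = 0.000397). It averaged 6.09 in the 14-day and 7.01 in the 3-day arm of the wild type, a difference of -0.93 (SE 0.142, 95% interval -1.22 to -0.63, adjusted p = 0.000485). The differences were -1.57 between treated and -0.45 between untreated groups of the knockout, and -1.46 and -0.39 in the wild type. The untreated means thus differed in the same direction by a smaller amount, but the untreated arrays overlapped between arms in both genotypes. The untreated differences alone were not tested. The 3 Galnt15 probes were higher in the 14-day arm of the wild type by 0.85, 0.62 and 0.63 (adjusted p = 0.00114, 0.0075 and 0.0475), with the brightest probe at 1.51 between treated and 0.19 between untreated groups. In the knockout the same 3 probes differed by 0.36, 0.43 and 0.28 (adjusted p = 0.251, 0.133 and 0.569); the difference between the genotypes was not tested. In all, 1 of 15 member probes passed in the knockout, where 0.611% of all kept probes did, and 4 of 15 in the wild type, where 7.29% did. At an unadjusted p under 0.05 the counts were 4 and 7 of 15, with Pde4d lower and the others counted higher in the 14-day arm. The share of all kept probes at that cut is again not given, so nothing is read from these counts. Both Pde4d calls, and those of the brightest Galnt15 probe and of ILMN_1239386, held on leaving out each array in turn. As between genotypes, this does not make the calls independent of how the genes were chosen. The call of ILMN_1244612 was lost without any one of 14 arrays, with differences of 0.54 to 0.66 and adjusted p of 0.051 to 0.134. These were treated knockout replicate 2, untreated knockout replicate 3, the 3 treated wild-type arrays and untreated wild-type replicates 1 and 3 at 14 days, and untreated knockout replicates 1 and 2, the 3 treated wild-type arrays and untreated wild-type replicates 2 and 3 at 3 days. Duration and any other difference between the 3-day and 14-day arms, such as the day of processing, cannot be told apart.

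The other genes of these families mostly showed no call under dexamethasone. The 8 families held 77 measured relatives, each read on its brightest kept probe, and these were not picked for their changes. Past the threshold, 1 was higher in the knockout at 14 days, 2 in the wild type at 14 days, 3 in the knockout at 3 days and 2 in the wild type at 3 days, which is 1.3%, 2.6%, 3.9% and 2.6% of the 77. The shares of all kept probes called higher were 0.982%, 1.1%, 2.66% and 1.74%. One relative was lower, in the wild type at 14 days. Of all kept probes 1.9%, 1.56%, 2.29% and 1.64% were called lower in the same 4 contrasts. The shares of relatives called thus lay near those of all probes. The median log2 difference of a family lay between -0.20 and 0.25 in the 32 combinations of family and contrast, against -0.007 to 0.004 for all kept probes. With array weights in the fit 16, 3, 7 and 8 of the 77 relatives were called in either direction, and 15.9%, 3.72%, 11.2% and 9.06% of all kept probes were.

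By family, none of the 8 other measured kallikreins passed the limma threshold in any contrast, with 3 of 32 tests at an unadjusted p under 0.05 and log2 differences of -0.28 to 0.44. None of the 6 other Odf genes passed, with 1 of 24 tests at an unadjusted p under 0.05, and none of the 8 other Galnt enzymes, with 1 of 32. Among 21 HECT ubiquitin ligases none passed, with 13 of 84 tests at an unadjusted p under 0.05 and differences of -0.72 to 0.56. Thus no measured relative of Odf3l2, Galnt15, Klk1b26 or Hectd2 passed the threshold. The Odf relatives and the kallikreins lay near background, with group means of 4.29 to 4.94 and 4.27 to 5.05, so changes there could be missed. Of the relatives on the array, 8 of 21 kallikreins and 8 of 17 Galnt genes were kept. The relatives were also not picked for large changes, unlike these genes. The share of all kept probes at an unadjusted p under 0.05 is not given, so nothing is read from the unadjusted counts.

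In the 4 other families single genes passed. Arrdc4, an alpha-arrestin like Arrdc2, averaged 7.35 ± 0.152 with dexamethasone and 6.5 ± 0.103 untreated in the knockout at 3 days (SD, n = 3 each), a log2 difference of 0.84 (adjusted p = 0.00202), in the contrast where Arrdc2 itself differed by 0.24. Pde8a, another phosphodiesterase of cyclic AMP, averaged 8.27 ± 0.234 and 7.49 ± 0.115 there, a difference of 0.78 (adjusted p = 0.00752), and missed the threshold without the array that stood apart, at 0.65 (adjusted p = 0.0583). Pde3b, a phosphodiesterase that insulin activates in fat and liver, was detected on no untreated wild-type array at 14 days and was at least 1.27-fold higher with dexamethasone there (adjusted p = 0.0389). Ttll12 averaged 5.29 ± 0.459 with dexamethasone and 6.02 ± 0.233 untreated in the wild type at 14 days, a difference of -0.74 (adjusted p = 0.0479).

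Among 13 genes that share the MYND zinc finger with Mss51, 2 accounted for all 5 calls. Cbfa2t3, a transcriptional corepressor, was higher by 0.86 in the knockout at 14 days, 0.64 in the knockout at 3 days and 0.95 in the wild type at 3 days (adjusted p = 0.00341, 0.0241 and 0.000917). Smyd2, a lysine methyltransferase, was higher by 0.70 in the wild type at 14 days and by 0.87 in the wild type at 3 days (adjusted p = 0.0451 and 0.00718). The calls of Arrdc4 and those of Cbfa2t3 in the knockout at 14 days and the wild type at 3 days held on leaving out each of the 24 arrays. The Cbfa2t3 call in the knockout at 3 days was lost without any one of 3 arrays (replicates 1 and 2 untreated and the array that stood apart), at 0.54 to 0.62 with adjusted p of 0.0742 to 0.133. The Smyd2 call in the wild type at 3 days was lost without untreated replicate 1, at 0.73 (adjusted p = 0.0666). In the wild type at 14 days the Pde3b call was lost without any one of the 6 arrays compared, or without untreated wild-type replicate 2 at 3 days, with adjusted p of 0.0504 to 0.178. The Smyd2 call there was lost without any one of 15 arrays, with adjusted p of 0.0527 to 0.189, and the Ttll12 call without any one of 17, with adjusted p of 0.05 to 0.394. The Smyd2 call held only without untreated knockout replicates 1 and 2 and untreated wild-type replicate 2 at 14 days, and without treated knockout replicates 1 and 3, untreated knockout replicates 1 and 3 and untreated wild-type replicates 1 and 3 at 3 days. The Ttll12 call held only without treated knockout replicate 1, untreated knockout replicate 1 and treated wild-type replicate 1 at 14 days, and without treated knockout replicates 1 and 3, untreated knockout replicate 3 and untreated wild-type replicate 3 at 3 days.

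**Figure D4:**
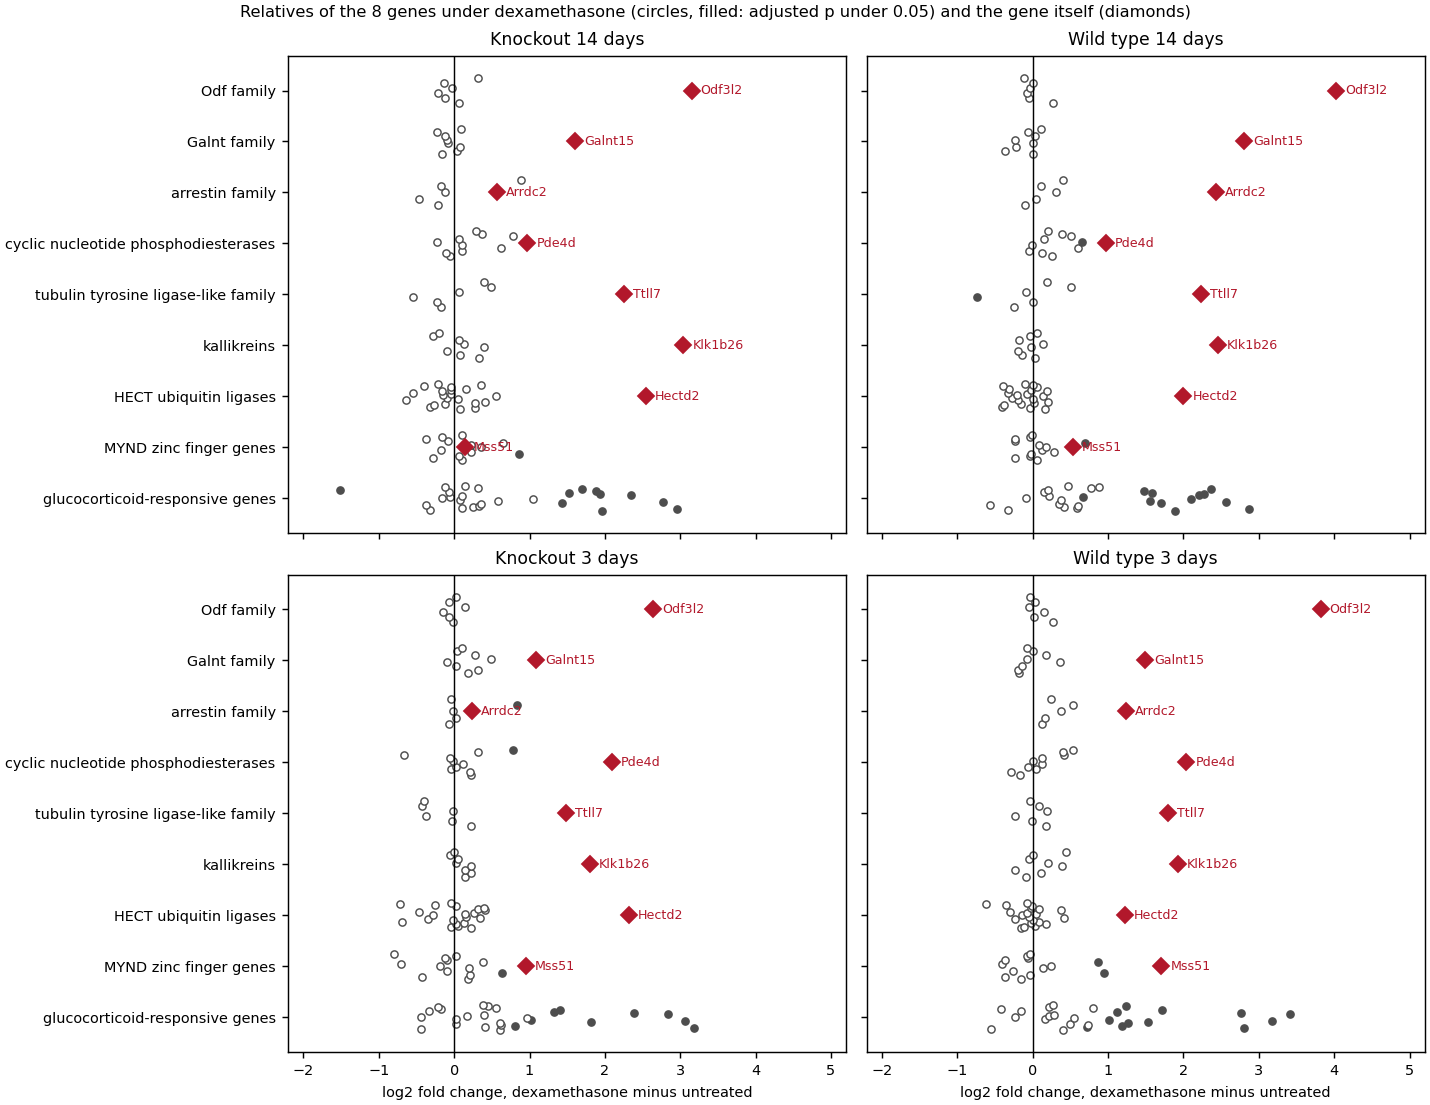
Log2 difference between dexamethasone and untreated muscle (x axis) for the measured relatives of each gene and for glucocorticoid-responsive genes (circles, filled at an adjusted p under 0.05), with the gene itself as a diamond, by family (y axis) and in 4 panels of genotype and duration. The 77 relatives lie between -0.80 and 0.95, while the diamonds reach 4.03.

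For scale, the same fits were read for 26 measured genes from a list of known glucocorticoid-responsive genes. They were called higher for 9 in the knockout at 14 days, 12 in the wild type at 14 days, 9 in the knockout at 3 days and 12 in the wild type at 3 days, and 1 was lower in the knockout at 14 days, the clock gene Per1 (-1.51). Their median log2 difference was 0.32, 0.72, 0.58 and 0.73 in the same order, against 0.002, -0.007, 0.004 and 0.002 for all kept probes. The cell cycle inhibitor Cdkn1a was higher by 2.96 and 2.87 in the knockout and the wild type at 14 days, and by 3.18 and 2.81 at 3 days. Fkbp5, a chaperone partner of the glucocorticoid receptor, was higher by 2.77 and 2.57 at 14 days, and by 3.06 and 3.17 at 3 days. Lcn2, a secreted carrier of iron-binding molecules, was detected on no untreated array at 3 days and was at least 5.66-fold higher with dexamethasone in the knockout and at least 8.82-fold higher in the wild type. Pik3r1, a regulatory subunit of PI3-kinase, was higher by 1.69 and 2.37 at 14 days, and it differed by 0.55 and 0.80 at 3 days without passing the threshold.

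The genes whose patterns lay closest to each of the 8, by the same distance between 8 group means, came from 10739 named genes. Odf3l2 lay nearest to Cdkn1a at 0.468 log2 units and to Fkbp5 at 0.484, then to Lcn2 at 0.561. Its group means spanned 4.12 log2 units, the widest span of the 8 genes. The distance is not scaled to that span, so distances of different genes are not directly comparable. Galnt15 lay nearest to Cyp2f2, a cytochrome P450, at 0.243 and to Pik3r1 at 0.26, then to Pnpla3, a lipid-droplet protein, at 0.326. Arrdc2 lay nearest to Map3k6, a kinase of the MAP kinase cascade, at 0.402, and to Cyp2f2 at 0.414, then to Depp1 at 0.445. Pde4d lay nearest to Eif4ebp1, an inhibitor of cap-dependent translation, at 0.243, and to Abra, a muscle actin-binding protein, at 0.306, then to the opsin Opn1mw at 0.352. The closest match of all was Ttll7 with Sv2b, a synaptic vesicle glycoprotein, at 0.069. Sv2b had log2 differences of 2.15 and 2.36 in the knockout and the wild type at 14 days and 1.58 and 1.87 at 3 days, and it was detected on 16 of 24 arrays. Fbxo32, the atrophy-linked ubiquitin ligase, came next for Ttll7 at 0.306, then the G-protein subunit Gng2 at 0.316. Klk1b26 lay nearest to Cxcl13, a chemokine, at 0.265 and to Sv2b at 0.323, then to Pdk4 at 0.417. Hectd2 lay nearest to Sv2b at 0.302 and to Cxcl13 at 0.325, then to Fbxo32 at 0.35. Mss51 lay nearest to Apoc3, an apolipoprotein, at 0.239 and to Chrna9, an acetylcholine receptor subunit, at 0.247, then to Gnmt, a glycine methyltransferase, at 0.261. Apoc3 and Gnmt were each detected on only 7 of 24 arrays. These distances describe the 8 means of these arrays only, and the arrays share their treatment.

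Markers of other cell types were read on the same arrays as summed linear signals. Odf3l2 and Klk1b26 bear names from testis and salivary gland. Of 7 testis and sperm markers on the array 2 were kept, Prm2 and Tnp2, while Odf1, Prm1, Tnp1, Akap4 and Smcp were each detected on fewer than 3 arrays, and the kept sum was 34.0 to 82.2 on treated and 39.7 to 85.4 on untreated arrays. Of 4 salivary markers on the array 2 were kept, Amy1 and Egf, with a sum of 189 to 361 on treated and 277 to 337 on untreated arrays. By genotype and duration, the testis sum was apart in 1 of 4 contrasts, at 59.1 to 82.2 in the treated and 39.7 to 58.0 in the untreated knockout at 3 days. The salivary sum was lower under dexamethasone at 3 days, at 189 to 270 in the treated and 281 to 291 in the untreated knockout and at 243 to 279 in the treated and 289 to 337 in the untreated wild type. At 14 days both sums overlapped between treatments in each genotype.

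Other lists also moved with treatment. The 7 fibroblast markers summed to 5620 to 7590 on treated and 7540 to 11500 on untreated arrays and were wholly lower under dexamethasone in 3 of 4 contrasts, overlapping in the wild type at 14 days. The 6 endothelial markers were wholly lower in 3 of 4 contrasts, at 445 to 494 in the treated and 497 to 541 in the untreated knockout at 14 days, 410 to 451 in the treated and 526 to 565 in the untreated wild type at 14 days, and 435 to 505 in the treated and 549 to 566 in the untreated knockout at 3 days. They overlapped in the wild type at 3 days. The 3 kept macrophage markers of 4 on the array were lower in 1 of 4 contrasts, at 466 to 517 in the treated and 518 to 662 in the untreated knockout at 3 days. The 6 red blood cell markers summed to 8180 to 11600 in the treated and 43000 to 57600 in the untreated knockout at 3 days, and to 7080 to 11400 in the treated and 34300 to 58100 in the untreated wild type. At 14 days their treated and untreated ranges overlapped. Of 4 smooth muscle markers 3 were kept, and at 3 days they summed to 1330 to 1590 in the treated and 716 to 872 in the untreated knockout, and to 1530 to 1650 in the treated and 693 to 1040 in the untreated wild type. Their 14-day sums overlapped between treatments in both genotypes. The 6 adipocyte markers summed to 691 to 2410 in the treated and 568 to 1040 in the untreated knockout at 14 days, which overlap, and to 1480 to 2590 in the treated and 616 to 1170 in the untreated wild type at 14 days, which do not. At 3 days they summed to 719 to 995 in the treated and 465 to 643 in the untreated knockout, and to 790 to 875 in the treated and 457 to 716 in the untreated wild type. The part of these lists in the values of the 8 genes, among them the larger 3-day differences of Pde4d and Mss51 and the larger wild-type differences of Galnt15 and Arrdc2 at 14 days, was not tested. Schwann cell and satellite cell sums overlapped in all 4 contrasts, as did skeletal muscle, whose 9 kept markers summed to 260000 to 315000 on treated and 250000 to 293000 on untreated arrays.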

How the data were processed

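Total RNA of mouse triceps surae was made into biotinylated cRNA and hybridised to Illumina beadchips, per the labels' protocols. The submitters' processing notes name BeadStudio 3.2.3 without its role. Per the file headers, the non-normalised table deposited by the authors lists an average signal intensity of 46632 probes on every array. Beside each intensity stands, in the same deposited file, a detection p-value. The authors also deposited a table of processed intensity values whose scale is not stated; 23 of its 24 columns share their lowest and highest value, their medians are 3.5 to 3.56, and 34.6% of values are below 0. It served only as an alternative, with values raised to a floor of 16. Replicate numbers follow the non-normalised table; in 5 groups the other table numbers the arrays otherwise.

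Background was corrected from the detection p-values, followed by quantile normalisation and log2 values with 16 added (neqc, limma 3.58.1, R 4.3.3). Probes detected at p under 0.05 on at least 3 arrays were kept. A mean was fitted for each of the 8 groups, with 16 residual degrees of freedom, moderated errors and Benjamini-Hochberg adjustment over 20769 probes. The brightest kept probe of a gene is the one with the highest mean log2 signal. Marker sums are linear normalised signals less the added 16.

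The 8 genes, the family lists and the marker lists were chosen with earlier results of these data known. Relatives were taken by family name, and up to 3 called ones per family and contrast are named. Each gene's 3 nearest patterns are named by the rule of smallest root-mean-square difference over 8 group means. Same-numbered treated and untreated replicates of one genotype and duration mostly did not deviate together, so the numbers were not used to pair samples. Of 12 pairs 2 correlated over 0.1 (range -0.464 to 0.33), both in the wild type at 3 days (0.254 and 0.33). Simulated data of 20769 probes held independent normal values with the same SD in all groups of a probe, and 100 changed probes of each size. On them a dexamethasone contrast recovered 76% of 2-fold and 23% of 1.5-fold changes with 4 false calls. The 3-day genotype average recovered 99% and 58% with 11 false calls. The real arrays had unequal SDs, more changed probes and an array that stood apart, so recovery on them may differ. Alternatives were quantile normalisation without background correction, the processed table, no filter on detection, detection on at least 12 arrays, one probe per gene, the replicate number as a block, array weights and leaving out each array. Probe sequences were not used here.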

Additional observations from a re-analysis of the deposited data

How the results depend on the processing

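The dexamethasone differences of member probes had 388 values under settings that kept all arrays. Of these, 327 moved by less than the spread between replicates and 61 by more, 40 of the 61 under quantile normalisation without background correction. None of at least 2-fold changed sign. With 3 arrays per group, leaving out 1 array cannot move a difference beyond that spread. None of the 1440 leave-one-out values did so, and nothing is read from this. The 25 differences of at least 2-fold among the brightest probes became 24 to 26 on leaving out each array and 20 to 28 under the other settings, with 20 under quantile normalisation without background correction and 28 on the processed table. Of the tested averages, the number of member probes called between genotypes in the 3-day arm (1) became 0 on the processed table and 0 with no filter on detection, and 0 to 1 on leaving out each array. The 2 called in the 14-day arm became 1 on the processed table, 1 with no filter, 1 with one probe per gene and 4 with array weights, and 1 to 4 on leaving out each array. The 4 called between arms in the wild type became 2 with one probe per gene, where only the brightest probe of a gene is in the fit. They reached 6 at the highest of the other settings, and 3 to 5 on leaving out each array. The 1 in the knockout stayed at 1. The 9 calls of relatives became 34 with array weights and 6 to 14 on leaving out each array. Taken by genotype and duration, relatives called in the knockout at 14 days (1) became 2 under quantile normalisation without background correction and 16 with array weights, with 1 to 5 on leaving out each array. In the wild type at 14 days (3) they became 1 under that normalisation, 0 on the processed table and 0 with no filter, with 0 to 3. In the knockout at 3 days (3) they became 7 with array weights, with 2 to 6, and in the wild type at 3 days (2) they became 8 with array weights, with 1 to 3. Glucocorticoid-responsive genes called in the knockout at 3 days (9) became 15 with array weights and 7 at the lowest of the other settings, with 7 to 12 on leaving out each array. In the wild type at 3 days (12) they were 10 to 16 under the other settings. At 14 days they were 9 to 11 in the knockout and 11 to 13 in the wild type. On leaving out each array these last counts stayed between 9 and 14. With the replicate number as a block, relatives called in the wild type at 14 days became 1, and all kept probes called in that contrast were 544 with the block against 553 without it. The causes of these changes were not tested. Array weights gave replicate 3 of the treated knockout at 3 days the lowest weight, 0.21.

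The 3 arrays per group limit every value. Simulated 1.5-fold changes were mostly missed in a dexamethasone contrast, though the simulation was simpler than these arrays. A relative that was not called may still have changed by that size. Odf3l2, both Klk1b26 probes and 3 Hectd2 probes lay near background in untreated muscle, where the offset of 16 shrinks differences. The untreated group means of the brighter Klk1b26 probe were 4.72 to 5.14. The 3 Hectd2 probes lay near background in treated muscle too.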
